A study of Homo sapiens with 9 samples.

Results

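The genes described here are those whose expression in MK801-treated glioblastoma devices lay outside everything measured in the untreated ones. A gene belongs to the set when its mean over all 9 libraries was at least 1 FPKM (fragments per kilobase of transcript, scaled to the library's mapped fragments) and its 3 MK801 values were all above the highest, or all below the lowest, of the 6 control values. Of 58735 genes in the deposited table, 11155 reached that mean, and 272 of these met the rule, which is 2.44%. MK801 was higher than every control for 165 genes (1.48%) and lower than every control for 107 genes (0.959%). The genes were thus chosen by their FPKM values in the MK801 and control libraries, so all differences between MK801 and controls are given as a description, without a test, and nothing is read from these shares.

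All samples were GBM43, a glioblastoma cell line, embedded in a 3D hyaluronic acid invasion device. Hyaluronic acid is the main polysaccharide of brain extracellular matrix, and cells leaving the seeded core for the surrounding gel model the spread of the tumour through brain tissue. The submitters separated control devices by scalpel into the core and the cells that had invaded (3 libraries of each fraction). Devices treated with MK801 at 50 µM gave too few invaded cells to cut, so core and invasive cells were collected together (3 libraries). The submitters describe the control treatment as plain medium in the series and as DMSO vehicle in the samples. All groups were 1 cell line in serum-containing medium, and the labels do not say whether replicate libraries are separate cultures, so their spread may be technical. In bulk RNA, fewer cells of a kind and less RNA per cell cannot be told apart.

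MK801 (dizocilpine) is a blocker that enters and plugs the open channel of NMDA receptors. These glutamate-gated cation channels let calcium into the cell, where it acts on kinase cascades such as the ERK pathway and on immediate-early transcription factors. The series asks whether glutamate outside the cells drives invasion through these receptors. None of the 7 NMDA receptor subunit genes reached a mean of 1 FPKM, and neither did any of 19 genes for other glutamate receptors, so none of them could enter the set. GRIN1, the obligatory subunit, was listed at 0 in all 9 libraries, and GRIN2D spanned 0.226 to 2.29 FPKM in controls and 0.341 to 1.17 FPKM in MK801. Among genes often used to mark glioblastoma, OLIG2 and CHI3L1 were listed at 0 in every library and GFAP did not exceed 0.234 FPKM. Others were expressed, with SOX2 at 1.39 to 3.26 FPKM. Of 31 listed glial stem and lineage genes 16 averaged at least 1 FPKM, as did 27 of 30 genes of the mesenchymal glioblastoma state. VIM, the mesenchymal intermediate filament, spanned 897 to 2101 FPKM and CD44, the hyaluronan receptor, 49.2 to 106 FPKM.

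The 3 MK801 libraries differed from each other more than the controls of 1 fraction did. They held 16.5 to 54.4 M fragments (M for 1e6), against 15.6 to 23.7 M in controls, and replicate 3 was the deepest. At an equal depth of 15.6 M fragments, MK801 replicate 1 detected 15161 genes and replicate 3 detected 21517, the ends of the range over all 9 libraries. Across genes, log expression correlated at r = 0.828 to 0.944 between MK801 libraries, 0.968 to 0.977 within core and 0.957 to 0.980 within invasive libraries; genes are not independent replicates. MK801 replicate 3 correlated with core libraries at 0.970 to 0.979 and with invasive libraries at 0.852 to 0.917. For MK801 replicate 1 these values were 0.786 to 0.866 and 0.931 to 0.957. For MK801 replicate 2 they were 0.886 to 0.939 and 0.950 to 0.965. Whether the pooled libraries held different shares of core and invasive cells was not tested. Taken alone, MK801 replicate 1 lay above all controls for 3187 genes and below them for 3446. Replicate 2 lay above for 1455 and below for 1273, and replicate 3 above for 1602 and below for 1356. For 515 genes replicate 1 was above all controls while replicate 3 was below them, and for 746 genes the positions were exchanged. The set of 272 is therefore the small overlap of 3 much longer and partly opposed lists.

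**Figure D1:**
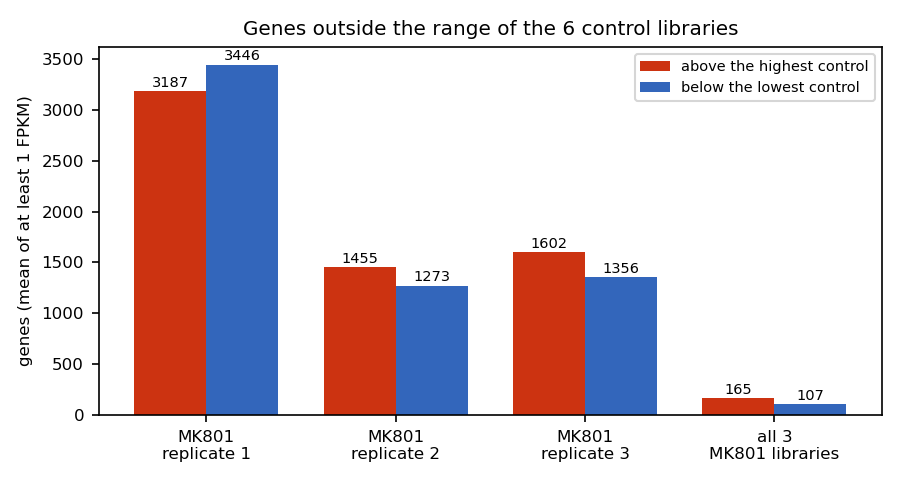
Number of genes averaging at least 1 FPKM (y axis) whose value lay above the highest (red) or below the lowest (blue) of the 6 control libraries, for each MK801 library alone and for all 3 together. Replicate 1 had 3187 and 3446 such genes, and 165 and 107 remained where all 3 libraries were on the same side.

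Most members lay just outside the controls. The gap between the nearest MK801 and the nearest control library, on the FPKM + 1 scale, had a median of 0.082 in log2 for the higher and 0.079 for the lower genes. It was under 1.1-fold for 116 of the 165 higher and 74 of the 107 lower genes, and at least 1.2-fold for 24 and 12. A gap of 1.5-fold or more was reached by 4 higher and 0 lower genes. The mean of 1 FPKM includes the MK801 libraries, so genes with weaker controls can enter only where MK801 is higher. The counts of the directions are therefore not compared. MK801 replicate 3 was the MK801 library closest to the controls for 101 higher and 57 lower genes. Without it, 772 genes lay above and 805 below all controls; without MK801 replicate 1 the counts were 410 and 244, and without replicate 2 they were 230 and 176. Fewer libraries to satisfy always admit more genes, so all 272 members are contained in each of these counts. The same held for the controls that most often set the border, core replicate 2 (243 above and 181 below without it) and invasive replicate 2 (260 and 201). Group means were further apart than the gaps, with a median ratio of mean FPKM, MK801 over controls, of 1.48 for higher and 0.575 for lower genes. A ratio of means of at least 1.5-fold was found for 77 higher and 76 lower genes, and one of at least 2-fold for 30 and 34.

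Among protein-coding members with a mean of at least 5 FPKM, the widest upward gap belonged to SLC12A8, a member of the cation-chloride cotransporter family (chromosome 3, 125082636 to 125212864 on GRCh38, minus strand). Its level was 3.14, 3.28 and 4.14 FPKM in the core libraries, 4.93, 3.82 and 5.17 FPKM in the invasive libraries and 8.73, 10.9 and 8.02 FPKM in MK801. The lowest MK801 value was 1.46-fold above the highest control on the FPKM + 1 scale, and the mean ratio was 2.26. It was the only member among 22 listed genes of ion transport and cell volume that reached 1 FPKM. Of all genes, 2.44% met the rule. CBX6, a chromobox subunit of Polycomb repressive complex, was 8.703 ± 1.42 FPKM (SD, n = 6) in controls and 16.9 ± 3.46 FPKM (SD, n = 3) in MK801. Both SLC12A8 and CBX6 stayed above all controls under each of the 5 other scalings tried.

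**Figure D2:**
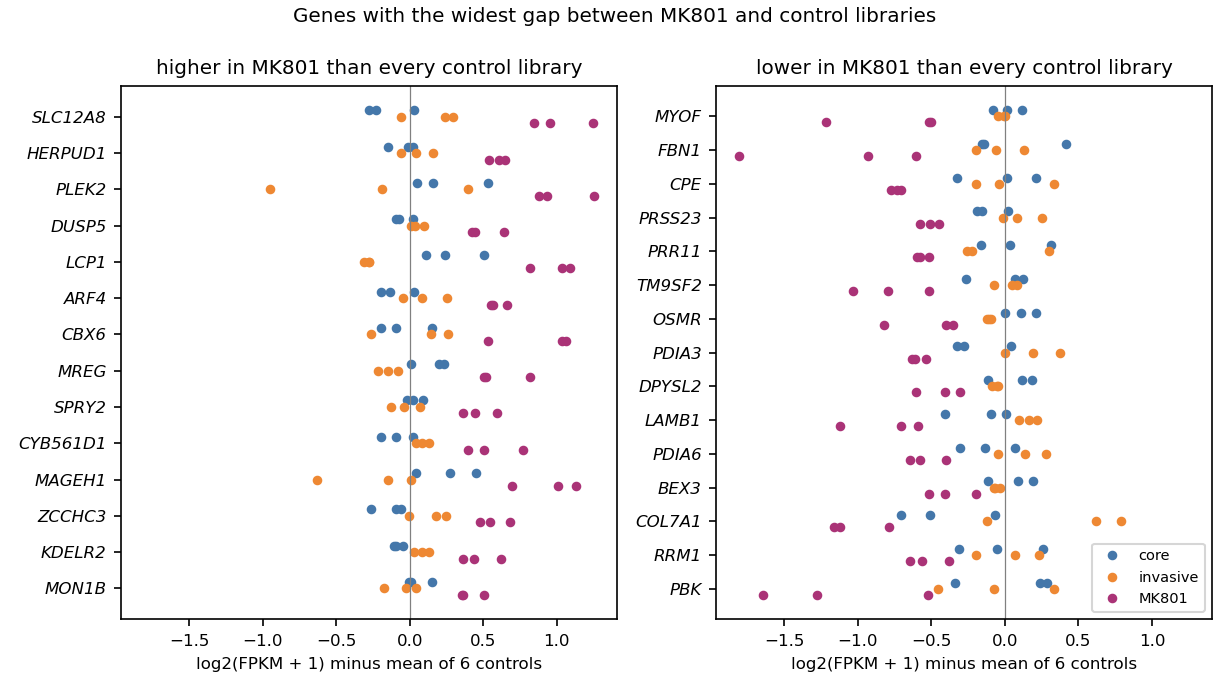
Level in each library, as log2(FPKM + 1) minus the mean of the 6 controls (x axis), for protein-coding members with the widest gaps and a mean of at least 5 FPKM (14 higher and 15 lower genes); each point is 1 library (blue core, orange invasive, magenta MK801). No magenta point falls among the controls, as the rule requires, and the distance between nearest points narrows from SLC12A8 to MON1B and from MYOF to PBK.

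Among the higher members were 2 genes of the ERK pathway's negative feedback. This feedback consists of phosphatases and adaptors that the pathway itself induces and that then restrain it. DUSP5, a nuclear phosphatase acting on ERK, measured 34.3, 36.7 and 33.7 FPKM in core, 38.7, 36.3 and 36.9 FPKM in invasive and 48.7, 56.8 and 49.4 FPKM in MK801 libraries. SPRY2, which restrains signalling from receptor tyrosine kinases, measured 34.4, 36.1 and 33.5 FPKM in core, 30.9, 35.6 and 32.9 FPKM in invasive and 46.5, 43.8 and 51.6 FPKM in MK801. For both, the controls of the 2 fractions overlapped and the MK801 libraries formed a separate group 1.21- to 1.25-fold away at the nearest point. Both no longer met the rule under TPM and quantile normalization, and DUSP5 also with the GC trend removed. They were 2 of 25 listed genes of ERK feedback and output with a mean of at least 1 FPKM, and 0 were lower. Of all genes, 1.48% were higher and 0.959% lower, and nothing is read from 2 genes. The other 23 listed genes did not have all 3 MK801 values on 1 side of the control range. The list's median difference, MK801 minus controls on the log2 scale, was 0.16, against -0.0026 for all genes. DUSP6, a cytoplasmic ERK phosphatase, was no member, with 38.4, 61.8 and 74.7 FPKM in MK801 inside the control span of 34.2 to 82.1 FPKM. Of 26 immediate-early and AP-1 genes, EGR2 was the single member and was lower, where 0.959% of all genes were lower. EGR2, a zinc finger transcription factor induced by growth factors and activity, stood at 5.36, 3.71 and 3.64 FPKM in core, 8.68, 5.38 and 6.26 FPKM in invasive and 1.07, 2.41 and 2.86 FPKM in MK801 libraries, a mean 2.61-fold below controls.

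Members of the secretory pathway lay on both sides. Proteins entering this pathway are folded in the endoplasmic reticulum, inspected, and passed to the Golgi. HERPUD1, part of the machinery that removes misfolded proteins from the endoplasmic reticulum, was 20.7 ± 1.54 FPKM (SD, n = 6) in controls and 31.7 ± 1.196 FPKM (SD, n = 3) in MK801. KDELR2, the receptor returning resident proteins from the Golgi, measured 80.9, 77.9 and 77.3 FPKM in core, 84.9, 88.3 and 91.5 FPKM in invasive and 129, 113 and 107 FPKM in MK801 libraries. ARF4, a GTPase of Golgi vesicle formation and among the 3 most abundant higher members, measured 104, 122 and 109 FPKM in core, 127, 142 and 116 FPKM in invasive and 177, 176 and 189 FPKM in MK801. In KDELR2 the invasive libraries lay slightly above the core, in HERPUD1 and ARF4 the fractions overlapped, and in all 3 the MK801 libraries were clear of both. SEC24D, SEC61G, GORASP2 and TOR1B, picked out after their values were seen, were further higher members with functions in this pathway. TPM kept neither HERPUD1 nor any of these, and quantile normalization lost HERPUD1, SEC61G, GORASP2 and TOR1B. In the opposite direction, PDIA3, a disulfide isomerase working on glycoproteins, was 42.9, 33.05 and 34.2 FPKM in core, 47.8, 54.4 and 41.8 FPKM in invasive and 27.01, 28.4 and 26.6 FPKM in MK801. PDIA6, another isomerase, was 24.3 to 36.9 FPKM over the controls and 18.95, 22.6 and 19.9 FPKM in MK801, and RPN2, a subunit of the complex that attaches N-linked sugars (named after its values were seen), was 29.2 to 56.1 FPKM over the controls and 22.01, 28.7 and 23.5 FPKM in MK801. NSF and ALG9, also named after their values were seen, were further lower members with functions in this pathway, and TPM kept neither. The 27 listed endoplasmic reticulum chaperones and stress genes gave 2 higher members (HERPUD1 and SELENOS), 2 lower members (PDIA3 and PDIA6) and 23 that were neither. Of all genes, 1.48% were higher and 0.959% lower, and nothing is read from these few genes. The list's median difference was -0.042 in log2, and without MK801 replicate 3 its lower genes numbered 5. HERPUD1 and KDELR2 overlap other expressed genes, and the sources used here do not say whether counting used strand.

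None of 60 listed actin and motility genes and none of 29 integrin and focal adhesion genes was a member, near the 2.44% of all genes that met the rule. The members described next are on neither list and were named by gap width or by level. LCP1, the actin-bundling protein L-plastin, was 32.6, 43.1 and 35.7 FPKM in core, 24.6, 24.03 and 24.7 FPKM in invasive and 64.97, 62.5 and 53.7 FPKM in MK801 libraries. Invasive libraries were the lowest, core libraries intermediate and MK801 libraries the highest, without overlap. PLEK2, a pleckstrin family protein that binds membrane phosphoinositides, measured 7.98, 10.6 and 7.33 FPKM in core, 6.07, 9.56 and 3.16 FPKM in invasive and 18.2, 13.8 and 14.4 FPKM in MK801. The heparan sulfate proteoglycan SDC4 was 122 to 152 FPKM in controls and 158 to 219 FPKM in MK801. In the other direction, MYOF, a ferlin of membrane repair and fusion, had the widest gap of the lower protein-coding genes averaging 5 FPKM or more, at 17.5, 15.1 and 16.2 FPKM in core, 15.5, 16.1 and 16.1 FPKM in invasive and 6.36, 10.9 and 11.1 FPKM in MK801. Its controls spanned only 15.1 to 17.5 FPKM, and each MK801 library lay at least 1.34-fold below them on the FPKM + 1 scale. DPYSL2, a tubulin-binding protein of axon growth, was 13.98 to 17.4 FPKM in controls and 9.701 to 12.1 FPKM in MK801.

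All 5 members of the extracellular matrix list were lower in MK801. The matrix that tumour cells deposit is built of collagens, laminins and fibrillar glycoproteins, and it is what invading cells hold on to. Of 37 listed matrix genes averaging at least 1 FPKM, 5 lay below all controls, 0 above, and 32 were neither. Of all genes, 0.959% were lower and 1.48% higher. FBN1, the microfibril protein fibrillin-1, measured 13.3, 8.64 and 8.74 FPKM in core, 8.38, 10.7 and 9.31 FPKM in invasive and 2.06, 6.05 and 4.63 FPKM in MK801, a mean 2.32-fold below controls. LAMB1, the beta-1 chain of laminin, measured 15.5, 11.4 and 14.4 FPKM in core, 17.4, 18.1 and 16.6 FPKM in invasive and 6.54, 9.06 and 9.91 FPKM in MK801. For LAMB1 and FBN1 the highest MK801 library still lay below the lowest control of either fraction. COL7A1, the collagen of anchoring fibrils, measured 13.3, 8.18 and 9.52 FPKM in core, 22.1, 24.98 and 12.8 FPKM in invasive and 5.91, 7.69 and 5.72 FPKM in MK801. COL12A1, a fibril-associated collagen, was 3.36 to 7.52 FPKM in controls and 0.849, 2.49 and 2.903 FPKM in MK801, and COL8A1, a network-forming collagen, was 2.49 to 4.098 FPKM in controls and 1.23, 2.07 and 2.21 FPKM in MK801. COL5A2, a fibrillar collagen, missed the rule by the smallest margin of any gene with a mean of 5 FPKM: its highest MK801 value, 9.99 FPKM in replicate 2, equalled its lowest control, core replicate 2, to 3 digits.

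The matrix list as a whole leaned the same way, with a median difference of -0.49 in log2 and mean levels below controls for 35 of 37 genes, against a median of -0.0026 over all genes. Without MK801 replicate 3 the median was -0.29 and 29 of 37 means were below. These differences weigh core and invasive controls equally, while the pooled MK801 cells may hold another share of each. Unlike the range rule, the median and the count of means can therefore shift with that share, which was not tested. The list held 5 to 9 lower and 0 higher genes when each library was left out in turn, with 9 lower without MK801 replicate 2. Leaving out a library can only add members, so the 5 were kept by construction. COL1A1, the main chain of type I collagen, was no member and had widely separated control fractions. It was 57.8, 27.2 and 27.2 FPKM in core, 217, 341 and 185 FPKM in invasive and 93.5, 71.8 and 26.3 FPKM in MK801. LOX, which crosslinks collagen and elastin, was lower and just past the border, at 8.81, 15.3 and 19.5 FPKM in MK801 against 19.6 to 42.3 FPKM in controls. Fibroblast and pericyte markers, which include matrix genes, summed to 72.8 to 622 FPKM in controls and 84.9 to 198 FPKM in MK801. Of these 10 markers 0 were members, 3 stayed under 1 FPKM in every library and 0 were at 0 in all. The 6 that averaged at least 1 FPKM had a median difference of -0.59 in log2, with 5 means below controls; their part in the matrix result was not tested.

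The mitosis list held the most lower members and was also the longest of the lists. Entry into and passage through mitosis depend on kinesins, condensin and the kinetochore, whose genes are switched on together late in the cell cycle. Of 79 listed mitosis and spindle genes averaging at least 1 FPKM, 6 lay below all controls and 0 above, against 0.959% and 1.48% of all genes. The 6 were PBK, KIF23, KIF18A, NCAPG, NDC80 and MKI67. Their promoters are shown first because several carry the cell cycle genes homology region (TTTGAA, capitals), a core element through which MuvB complexes act on late cell cycle genes. Each line gives the 100 bases before the RefSeq gene start on GRCh38.p14, 5′ to 3′ on the strand of the gene, with the match in capitals. PRR11, a lower member with a role in cell cycle progression that was on none of the lists, is added for comparison; the 5 were chosen after the matches were seen.

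KIF23: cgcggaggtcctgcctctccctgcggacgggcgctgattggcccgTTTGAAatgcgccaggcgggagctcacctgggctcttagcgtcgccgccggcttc
MKI67: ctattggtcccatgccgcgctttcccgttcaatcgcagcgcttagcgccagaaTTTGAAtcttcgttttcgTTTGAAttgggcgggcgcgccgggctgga
NCAPG: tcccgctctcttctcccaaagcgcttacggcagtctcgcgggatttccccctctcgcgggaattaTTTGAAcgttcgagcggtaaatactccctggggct
KIF18A: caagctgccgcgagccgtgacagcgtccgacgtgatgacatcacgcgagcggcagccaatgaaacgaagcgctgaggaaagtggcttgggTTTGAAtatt
PRR11: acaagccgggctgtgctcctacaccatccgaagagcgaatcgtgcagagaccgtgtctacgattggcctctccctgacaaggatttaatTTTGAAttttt

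The windows are chr15:69414249-69414348 (plus strand) for KIF23, chr10:128126424-128126523 (minus) for MKI67 and chr4:17810879-17810978 (plus) for NCAPG. Those of KIF18A and PRR11 are chr11:28108157-28108256 (minus) and chr17:59155646-59155745 (plus). MKI67 holds the element 2 times within this window and the other genes 1 time, always on the strand of the gene. In KIF18A and PRR11 it begins 10 and 11 bases before the start, in NCAPG 35 and in KIF23 55. Searched on both strands from 250 bases before to 50 after the start, TTTGAA was found for 6 of the 8 lower mitosis and DNA replication members with a RefSeq promoter, of 10 such members (KIF23, KIF18A, RRM1, NCAPG, NDC80 and MKI67). Among genes averaging at least 1 FPKM it was found in 9.10% of 8406 promoters, and in 15.4% of all 27305 promoters. TTTGAA was 1 of 13 motifs searched. For the same 8 promoters the antioxidant response element (TGACNNNGC) was also found in 6, against 15.5% of the 8406, and the E2F element (TTTCCCGC) in 0, against 2.83%. NF-kB element matches were found in 6, against 74.4%. A match describes these letters only. Listed mitosis and replication genes that were not lower were not scored as a group. These shares therefore cannot tell membership of the set from being on the lists, and nothing is read from them. Promoters were matched for 191 of the 272 members (70.2%), under the 80% needed to compare the whole set, so that comparison is void.

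KIF23, a kinesin of cytokinesis, had the widest gap of the mitosis genes, with 3.301, 3.29 and 5.06 FPKM in core, 3.48, 3.94 and 5.12 FPKM in invasive and 1.69, 1.86 and 2.601 FPKM in MK801 libraries. PBK, a mitotic kinase, measured 9.08, 5.76 and 9.39 FPKM in core, 7.12, 5.23 and 9.74 FPKM in invasive and 1.73, 2.51 and 4.94 FPKM in MK801. MKI67, the proliferation marker Ki-67, measured 6.59, 3.92 and 7.12 FPKM in core, 7.07, 7.59 and 8.69 FPKM in invasive and 3.84, 3.73 and 3.41 FPKM in MK801. In KIF23 and PBK, MK801 replicate 3 was the highest of the MK801 libraries, whereas in MKI67 all 3 were close together and core replicate 2 lay just above them. NCAPG, a condensin subunit, was 1.89 to 4.46 FPKM in controls and 0.847 to 1.82 FPKM in MK801, and NDC80, which joins kinetochores to microtubules, was 2.19 to 5.42 FPKM in controls and 0.589 to 2.13 FPKM in MK801. KIF18A, a kinesin that dampens chromosome movement, was 1.14 to 3.498 FPKM in controls and 0.257 to 0.919 FPKM in MK801. PRR11 was the most uniform, with 6.96, 6.64 and 6.52 FPKM in MK801 against 8.52 to 13.2 FPKM in controls.

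Over the 79 mitosis genes the median difference was -0.41 in log2, and 75 had a mean below controls. Without MK801 replicate 3 these were -0.46 and 53 of 79. As for the matrix list, these values can also shift with the share of core and invasive cells, which was not tested. The number outside the range depended on single libraries. It was 32 without MK801 replicate 3, 11 without core replicate 2, 10 without invasive replicate 1, and 9 without MK801 replicate 1, while no listed mitosis gene lay above all controls in any of these. DNA replication genes gave 4 lower members among 55, and 1 higher, against 0.959% and 1.48% of all genes. RRM1, the large subunit of ribonucleotide reductase, was 12.7, 10.5 and 16.1 FPKM in core, 11.4, 15.8 and 13.96 FPKM in invasive and 8.68, 8.11 and 9.98 FPKM in MK801. EXO1, a DNA repair exonuclease, was 2.42 to 4.48 FPKM in controls and 1.93 to 2.19 FPKM in MK801, and PRIM1, the catalytic subunit of DNA primase, was 1.96 to 2.89 FPKM in controls and 1.12 to 1.74 FPKM in MK801. CCNE1, the cyclin that starts S phase, was the higher one, at 4.35, 2.24 and 1.66 FPKM in MK801 against 0.982 to 1.55 FPKM in controls. The replication list's median difference was -0.20 in log2, with 47 of 55 means below controls. Without MK801 replicate 3 the median was -0.086 with 31 of 55 below, and without MK801 replicate 1 it was -0.45 with 50 below. The list's lower genes numbered 12 without core replicate 2, 9 without MK801 replicate 3 and 7 without MK801 replicate 1. PCLAF, DSCC1, CDKN3, ATAD2, LMNB1 and FANCD2, picked out after their values were seen, were lower members with cell cycle, replication or nuclear roles outside these lists.

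**Figure D3:**
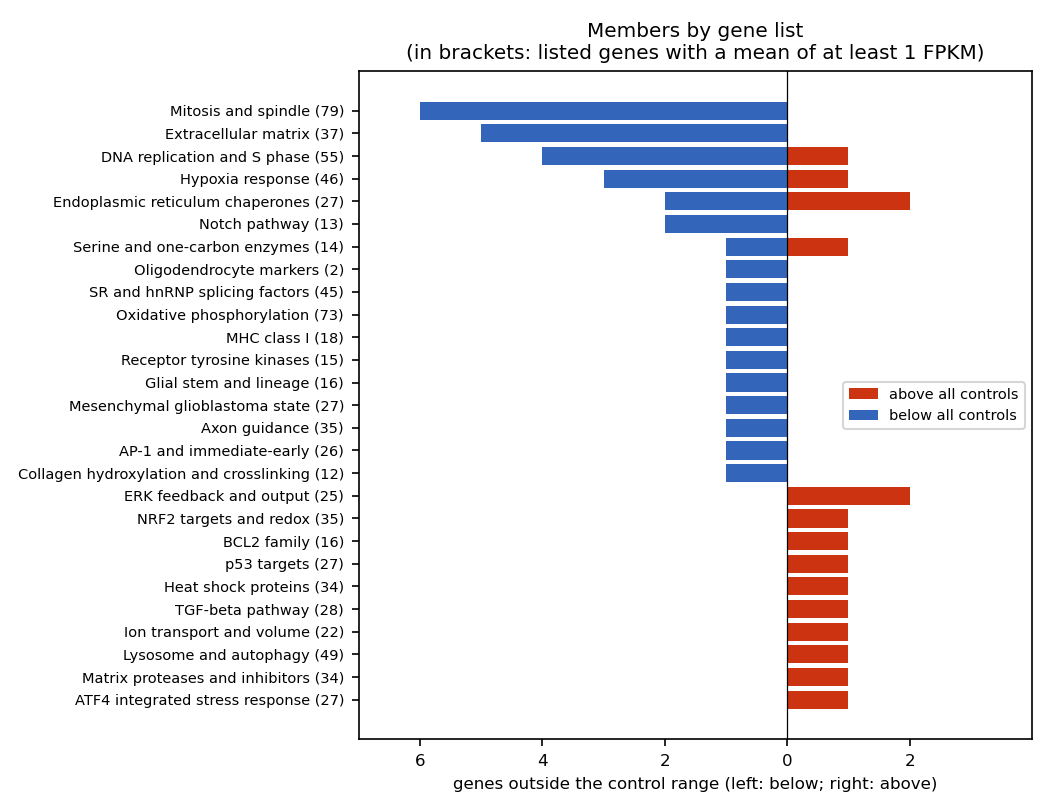
Number of members below (left, blue) and above (right, red) all controls in each of the 27 gene lists that held at least 1; the figure in brackets is the number of listed genes averaging at least 1 FPKM. Mitosis (6 lower of 79) and extracellular matrix (5 lower of 37) hold the most lower members and none above the controls. DNA replication holds 4 lower and 1 higher of 55. Of all genes, 0.959% were lower and 1.48% higher, and a gene may be on more than 1 list.

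Hypoxia genes and receptors held a few members each. Of 46 listed genes of the hypoxia response, CXCR4 was higher and CA12, VEGFA and LOX were lower. Of all genes, 1.48% were higher and 0.959% lower, and nothing is read from these few genes. CXCR4, the receptor of the chemokine CXCL12 and known for guiding glioma cells, measured 4.02, 3.35 and 4.21 FPKM in core, 2.79, 5.42 and 1.78 FPKM in invasive and 7.91, 5.94 and 7.77 FPKM in MK801. CA12, a membrane carbonic anhydrase, measured 139, 119.6 and 101 FPKM in core, 72.4, 106 and 74.03 FPKM in invasive and 59.2, 71.1 and 67.5 FPKM in MK801. VEGFA, the main angiogenic growth factor, measured 99.2, 63.2 and 82.9 FPKM in core, 80.2, 56.2 and 68.1 FPKM in invasive and 44.5, 55.5 and 55.7 FPKM in MK801. In CA12 and VEGFA an invasive library lay 1.02-fold and 1.01-fold above the nearest MK801 library, so their position outside the range rests on a very small step. The lower members of the list numbered 7 without MK801 replicate 1, 6 without MK801 replicate 3 and 5 without invasive replicate 3. Among receptors, OSMR, which receives oncostatin M and belongs to the mesenchymal glioblastoma signature, was 25.1, 21.6 and 23.4 FPKM in core, 19.96, 19.7 and 20.1 FPKM in invasive and 11.8, 16.1 and 16.7 FPKM in MK801. PDGFRA, a receptor tyrosine kinase of glial progenitors, was 2.64 to 4.83 FPKM in controls and 1.32 to 2.43 FPKM in MK801. Both receptors were lowest in MK801 replicate 1. Of 13 listed Notch genes 2 were lower members, where 0.959% of all genes were lower. The list's median difference, by contrast, was 0.23 in log2, and 7 of 13 means stood above controls. JAG1, a Notch ligand, was 2.104 to 2.86 FPKM in controls and 1.33 to 2.08 FPKM in MK801, and MAML3, a Notch coactivator, 1.096 to 1.73 FPKM and 0.628 to 1.04 FPKM. TNFRSF10B, the death receptor DR5, was higher, at 73.4, 91.8 and 76.4 FPKM in MK801 against 52.4 to 64.2 FPKM in controls. BAMBI, a decoy receptor of the TGF-beta family, was higher, at 4.95, 7.45 and 6.48 FPKM in MK801 against 1.2 to 4.88 FPKM in controls.

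The remaining lower genes with wide gaps had varied roles. CPE, carboxypeptidase E of peptide hormone processing, was 14.3, 12.3 and 9.57 FPKM in core, 11.8, 15.7 and 10.5 FPKM in invasive and 6.74, 6.96 and 7.098 FPKM in MK801. The MK801 libraries lay within 6.74 to 7.098 FPKM of each other, closer together than either control fraction. PRSS23, a secreted serine protease, was 12.9 to 17.8 FPKM in controls and 9.59 to 10.6 FPKM in MK801. TM9SF2, a Golgi and endosome membrane protein, was 11.7 to 15.6 FPKM in controls and 6.42 to 9.64 FPKM in MK801. BEX3, a small adaptor of the p75 neurotrophin receptor, was the most abundant lower member, at 223, 209 and 181 FPKM in core, 192, 187 and 186 FPKM in invasive and 171, 137 and 147 FPKM in MK801. ENPP1 and PTN, named after their values were seen, were 4.198 to 7.11 and 4.36 to 6.03 FPKM in controls and 1.497 to 2.55 and 0.784 to 3.52 FPKM in MK801. ENPP1 is an ectonucleotidase, and PTN is pleiotrophin, a heparin-binding growth factor; ENPP1 had the widest gap of all lower genes, at 1.46-fold.

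At the top by level, HSPA8, the constitutive HSP70 chaperone, was the most abundant member of the set. It measured 265, 276 and 275 FPKM in core, 277, 266 and 256 FPKM in invasive and 338, 286 and 314 FPKM in MK801, a mean ratio of only 1.16. Its controls differed by little, so a small shift sufficed to leave their range. Some weakly expressed genes showed the reverse. CPNE7, DTX4 and CLDN14, named after their values were seen, had controls of 0.345 to 1.35, 0.375 to 1.01 and 0.298 to 1.65 FPKM and MK801 values of 2.93 to 4.42, 2.36 to 2.91 and 2.997 to 5.45 FPKM. CPNE7 is a copine, a calcium-dependent phospholipid-binding protein, DTX4 a ubiquitin ligase of the Notch regulator family, and CLDN14 a tight junction protein. With MIR6775 these were the 4 members with a gap of at least 1.5-fold. Genes with a control mean under 1 FPKM could enter the set only through high MK801 values, so their wide gaps partly follow from the filter. MIR6775, a microRNA precursor of 69 bases, lies within the transcribed region of SLC7A5, an amino acid transporter, from which its fragments cannot be told apart. CALB2, the calcium-binding protein calretinin, also named after its values were seen, was 19.6, 33.1 and 20.6 FPKM in core, 9.15, 18.4 and 11.6 FPKM in invasive and 58.04, 45.1 and 36.8 FPKM in MK801. For 44 of the 165 higher and 19 of the 107 lower genes, the 95% Poisson intervals of the fragments in the nearest MK801 and control libraries did not overlap; these cover counting error only.

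Non-coding members numbered 18 of 165 higher and 17 of 107 lower genes, against 1287 of all 11155. AC026310.2, annotated as antisense to BCAT1, was 34.6, 60.8 and 38.4 FPKM in core, 16.2, 36.9 and 20.4 FPKM in invasive and 128, 100.3 and 86.5 FPKM in MK801 (chromosome 12, 24949163 to 24960158, plus strand). Without strand, reads of this gene and of BCAT1, a branched-chain aminotransferase, cannot be told apart where they overlap, and BCAT1 was 13.4, 16.8 and 18.9 FPKM in core, 6.56, 6.71 and 9.05 FPKM in invasive and 3.55, 9.45 and 20.4 FPKM in MK801. The order of the MK801 libraries differed between them, highest in replicate 1 for AC026310.2 and in replicate 3 for BCAT1. LINC00659 measured 1.88 to 10.6 FPKM in controls and 13.5 to 27.9 FPKM in MK801. BX640514.2 was lower, at 31.3, 32.5 and 32.1 FPKM in MK801 against 42.5 to 51.3 FPKM in controls, and LINC01551 was 4.36, 3.83 and 6.303 FPKM against 8.01 to 11.5 FPKM. The short RNAs among the members, 3 snoRNAs and 2 microRNA precursors, were all higher and all lie within expressed host genes. In all, 40 higher and 28 lower members overlap another expressed gene and are uncertain for the same reason.

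What the rule did not use also differed between the directions. The median GC content of members' transcripts was 51.4% for higher and 45.2% for lower genes, against 48.5% for all 11155 genes. GC content of the libraries themselves, weighted by fragments, was 49.7 to 53.6% in MK801 and 49.0 to 53.7% in controls. Transcription factors, by the family column of the authors' table, made up 16 of 165 higher genes (9.70%) and 2 of 107 lower genes (1.87%), against 6.90% of all genes. The higher ones included 3 forkhead factors (FOXK1, FOXL1 and FOXO4), the methyl-CpG binder MBD1 and MAFK, and the lower ones were FOXJ1 and EGR2. On chromosome 19 lay 17 of the higher genes (10.3%) and 1 of the lower, against 6.90% of all genes. These are counts without a test.

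The members' invasive and core levels are not independent of the rule, because the highest and lowest of the same 6 control values set its borders, and genes whose controls lie close together meet it more easily. The contrast between the fractions was fitted with limma on the 6 control libraries with Benjamini-Hochberg adjustment, and it is given here as a description of the members. Of 11845 genes tested, 6179 (52.2%) differed between invasive and core libraries at an adjusted p under 0.05. Of the 272 members, 16 did (5.88%), 8 of the higher and 8 of the lower genes, and nothing is read from the distance between these shares. With each library's GC trend removed, 58 members (21.3%) and 2287 of 11841 genes (19.3%) were called, so the distance was not there under that setting. LCP1 was lower in invasive than in core libraries, with a difference (invasive minus core) of -0.57 ± 0.16 (SE) in log2, and highest in MK801. CALB2 was likewise lower in invasive libraries, with a difference of -0.87 ± 0.27 (SE) in log2. COL7A1 was higher in invasive libraries by 0.86 ± 0.26 (SE) in log2, with MK801 below even the core. EGR2 was higher in invasive libraries by 0.56 ± 0.20 (SE) in log2, again with MK801 below the core. RPN2 was higher in invasive libraries by 0.67 ± 0.18 (SE) in log2, and LOX was lower there, with a difference of -0.67 ± 0.18 (SE) in log2. The median absolute difference between fractions was 0.13 in log2 for higher members, 0.16 for lower members and 0.56 for all genes. In a fit to all 9 libraries, whose spread includes that of MK801, limma called 0 genes, with 4461 genes and 15 members at an unadjusted p under 0.05. Leaving out invasive replicate 1 left 2 members called, core replicate 3 left 3 and core replicate 2 left 4.

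**Figure D4:**
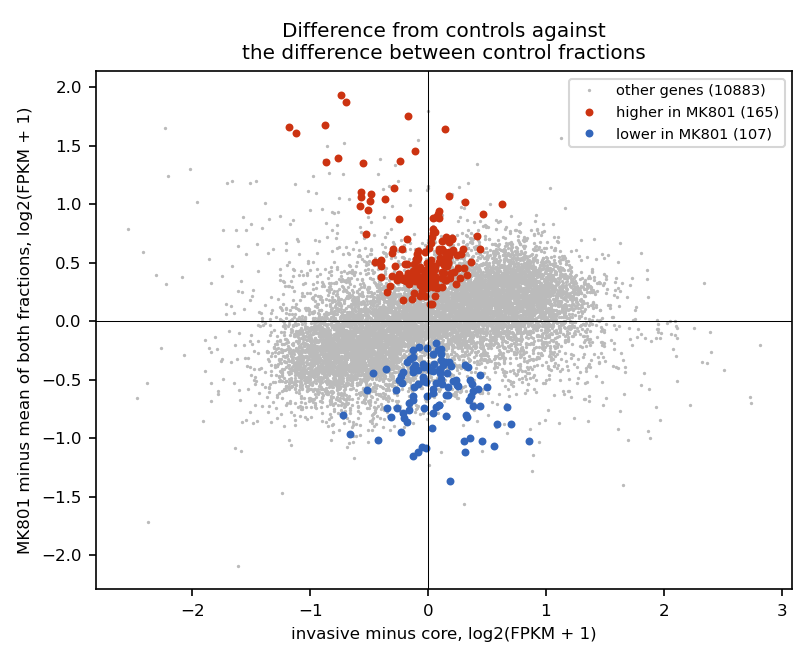
Difference between MK801 and the mean of both control fractions (y axis) against the difference between invasive and core libraries (x axis), both in log2(FPKM + 1), for each gene averaging at least 1 FPKM; 165 higher members are red, 107 lower members blue and other genes grey. Members lie close to 0 on the x axis, where the rule is easiest to meet, while the grey cloud spreads to both sides; both axes use the same controls.

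Membership depended on how the libraries were scaled. TMM scaling kept 154 of the 165 higher and 100 of the 107 lower genes, and median-of-ratios scaling kept 146 and 98. Quantile normalization kept 82 and 59, removal of each library's trend over GC content kept 72 and 42, and rescaling to TPM kept 31 and 31. TPM gives every library the same sum, whereas the deposited FPKM values summed to 229449 to 445633 per library, and under it the median MK801 minus control difference of all genes was -0.16 in log2. On that scale the mean of 163 of 165 higher and 107 of 107 lower genes still stood on the same side of the control mean. The rule had already placed the MK801 values of these genes beyond all controls, so these counts largely follow from the selection. They do not show that the set holds under TPM. Only 21 higher and 8 lower genes met the rule under FPKM and all 5 other scalings. The higher ones included SLC12A8, CBX6, AC026310.2, CALB2, CPNE7, DTX4 and FOXO4, and the lower ones FBN1, COL7A1, CPE and EGR2. Of the 5 lower matrix genes, TPM kept 2 and every other scaling kept 5. Of the 6 lower mitosis genes, TPM kept 0, GC removal 3, median-of-ratios 4 and quantile normalization 5. Of the 4 lower replication genes, GC removal kept 0, TPM 1, quantile normalization 1, and median-of-ratios and TMM 4 each. Of the 3 lower hypoxia genes, TPM and quantile normalization kept 0, median-of-ratios and GC removal 1 each, and TMM 2. VEGFA met the rule with FPKM as deposited only, and DUSP5, ARF4, KDELR2, CA12, EXO1 and BEX3 were lost under TPM, quantile normalization and GC removal.

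**Figure D5:**
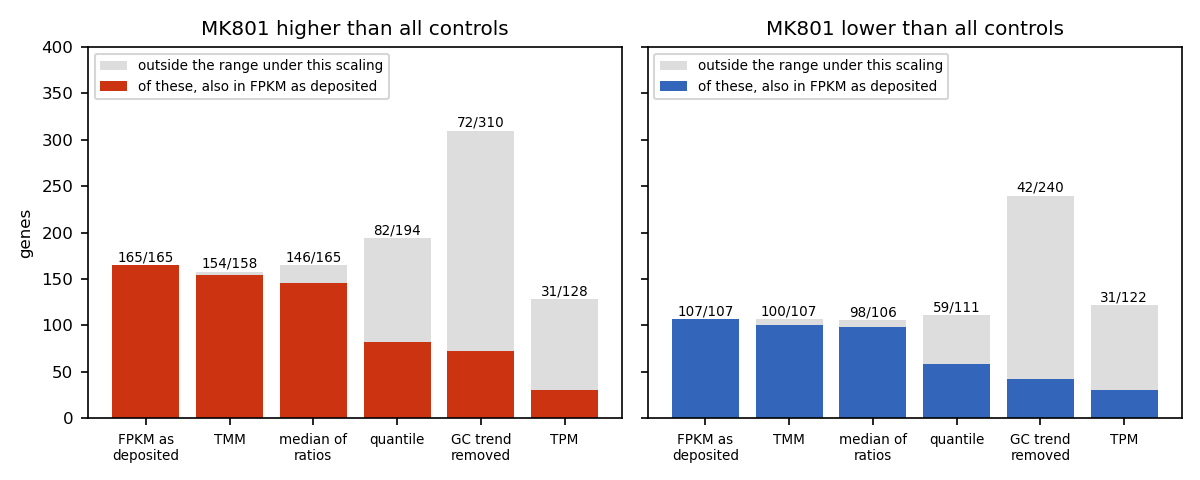
Number of genes above (left panel) or below (right panel) all controls under each scaling of the libraries (grey bar and second number), and how many of them also met the rule with FPKM as deposited (coloured bar and first number). TMM shares 154 and 100 genes with the deposited FPKM, TPM only 31 and 31.

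At the borders of the rule, small steps decided membership. Just inside were FLCN, with MK801 at 8.63, 9.78 and 6.49 FPKM and a highest control of 6.48 FPKM, and ETFA, with MK801 at 11.01, 10.1 and 10.1 FPKM and a lowest control of 11.04 FPKM. Just outside were GIGYF1, with 7.303, 10.9 and 8.58 FPKM in MK801 and 5.29 to 7.31 FPKM in controls, and SRP14, with 47.7, 35.8 and 45.9 FPKM in MK801 and 47.1 to 66.6 FPKM in controls. At the mean threshold, C1QTNF12 entered with a mean of 1.04 FPKM and C16orf74 stayed out with 0.975 FPKM.

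Several groups tied to the treatment or to invasion had no member, which for lists of this length is near the 2.44% of all genes that met the rule, so nothing is read from it. None of 10 expressed glutamate, cystine and glutamine transporters and none of 18 glutamate and glutamine enzymes lay outside the control range in all 3 MK801 libraries. Neither did any of 33 calcium signalling genes, 33 genes of cholesterol synthesis, 31 of glycolysis, 33 proteasome subunits, 30 NF-kB and cytokine genes or 28 interferon-stimulated genes. The transporters had a median difference of 0.32 in log2, with 7 of 10 means above controls, and the interferon-stimulated genes one of -0.32, with 22 of 28 below. Being no member says only that the 3 MK801 libraries did not all lie on 1 side of the controls. In all, 43 members were on at least 1 of the 56 lists and 229 on none.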

How the data were processed

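RNA was sequenced from 3 core, 3 invasive and 3 MK801 libraries of GBM43 cells, after poly-A selection per the labels' protocols. The deposited values are FPKM per gene; alignment with HISAT2 2.0.5 to GRCh38 and counting with featureCounts 1.5.0-p3 are listed per the submitters' processing notes, while settings and use of strand are not given in the sources used here. Gene identifiers matched GENCODE release 29 (100%). FPKM times gene length gave whole fragments (tolerance 0.01) for 100% of values above 0, which gave the depths of 15.6 to 54.4 M fragments; intervals from them cover counting error only.

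Ratios and mean ± SD are of FPKM. Differences are of log2(FPKM + 1), so those of weakly expressed genes are understated, and both control fractions weigh equally. Median differences of lists can therefore shift with the share of core and invasive cells in the pooled MK801 samples. Limma 3.58.1 in R 4.3.3 (trend, empirical Bayes, Benjamini-Hochberg) compared invasive with core in the 6 control libraries, for 11845 genes with at least 1 FPKM in at least 3 libraries. In simulated data for this contrast, over 11845 genes, it recovered 83 of 100 genes changed 2-fold and 95 of 100 changed 4-fold. There were 8 false calls. The simulated libraries carried no GC trend, whereas removing that trend from the real libraries took the calls from 6179 to 2287. The simulated false calls therefore do not measure those of the real contrast. Other scalings and the GC trend (loess, span 0.3) were computed in Python 3.11.15 with statsmodels 0.14.6.

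The members and gene lists were chosen with earlier results of these data known. Named genes are, per direction, the 15 protein-coding members with a mean of at least 5 FPKM and the widest gap, up to 4 members per list, and the 3 most abundant, the 3 non-coding with the widest gap, and the 3 with the narrowest gap, plus the 3 genes that missed the rule by least; others are said to be named after their values were seen. Promoters are from RefSeq (GRCh38.p14). Some members named by this rule are not reported here.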

Additional observations from a re-analysis of the deposited data

How the results depend on the processing

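The counts of 165 genes above and 107 below all controls were 165 and 106 under median-of-ratios scaling, 158 and 107 under TMM, 128 and 122 under TPM, and 194 and 111 under quantile normalization. Removing the GC trend gave 310 and 240. No filter gave 273 and 191, a mean of at least 5 FPKM 105 and 35, a gap of at least 1.2-fold 24 and 12, and one of 1.5-fold 4 and 0. Core libraries alone as controls gave 1141 and 975, invasive libraries alone 560 and 618, and leaving out MK801 replicate 1 and invasive replicate 2, which detected the fewest genes, 528 and 370. Leaving out single libraries gave 176 to 772 above and 113 to 805 below. Without MK801 replicate 3 the share above was 49.0%, against 60.7%. The filter on the mean shapes both shares, so they are not read as a balance of directions. Among the 71 named members, HSPA8 was reversed under quantile normalization, where its gap was -0.87 in log2. The rule was no longer met by 54 of them under TPM, 36 under GC removal and 29 besides HSPA8 under quantile normalization. It was not met by 7 under median-of-ratios and 6 under TMM. For this, 1 MK801 library reaching the control range was enough. The alternatives for single gene lists were chosen after the data were seen.

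Of the members, 16 were called between invasive and core libraries. The count was 4 with no filter, 58 with the GC trend removed (21.3%, against 19.3% of all genes), 0 in the fit to all 9 libraries and 2 to 22 when 1 library was left out. With the replicate number as a block it was 28, and 71 with the block and GC removal together. Deviations of same-numbered core and invasive libraries correlated at -0.0070, 0.24 and 0.44, and those of differently numbered ones at -0.40 to 0.21. The same number gave the highest value for invasive replicates 2 and 3, but not for invasive replicate 1. Whether same-numbered fractions are pairs was thus not settled, and the main fit ignored any pairing. The causes of these shifts were not tested. Depth limits members with few fragments: the nearest libraries' counting intervals were apart for 63 of 272.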
